A study of Mus musculus with 2 samples.

Results

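The genes described here are those whose name marks a protein of the cytosolic ribosome (Rpl or Rps and a number, Rplp0, Rplp1, Rplp2 and Rpsa, without the Rps6k kinases). The rule took 84 of the 37146 genes in the tables. By name, 41 encode proteins of the large subunit, 31 of the small subunit and 3 the P stalk, 8 are paralogs of such genes, and 1, Rps19bp1, encodes no ribosomal protein. Rpl13 and Rpl41 are not analysed here. The 84 genes hold 358 transcript rows and 84 rows that cover the whole span of a gene, with a median of 5 rows per gene. They were compared between 2 RNA-seq libraries of liver from CD-1 mice, an outbred strain. The Control mice were given PBS, and the NP mice were given titanium dioxide (TiO2) nanoparticles by mouth at 50 mg per kg body weight per day, from a suspension treated with ultrasound for 30 min. Neither age, sex, duration nor the number of animals behind a library is given in the sources used here.

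Ribosomal proteins coat and stabilise the ribosomal RNA and are needed in equal numbers, since a ribosome holds a single copy of nearly every one. Their mRNAs are short, abundant and controlled together, mainly in translation through the mTOR pathway and the tract of pyrimidines at their start. Because such mRNAs have been copied back into the genome many times, most of these genes have processed pseudogenes, intronless copies of nearly the same sequence, and a sequenced read may fit the gene and its copies equally well.

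The extent of that likeness can be seen in the sequences. They are coding bases of GENCODE M21 transcripts (build GRCm38), counted from 1 at the start codon, and capitals mark bases of the second gene that differ from the first. The coding sequence of Rps6, whose product is the target of the S6 kinases, was identical over all 747 bases to that of Gm13654 (Rps6-ps4 in M21), and its first 60 bases stand for both genes.
Rps6: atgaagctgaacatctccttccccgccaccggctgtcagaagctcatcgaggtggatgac
Gm13654: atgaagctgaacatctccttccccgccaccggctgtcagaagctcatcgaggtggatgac
Rps27, a small-subunit protein, was identical over 252 bases to Gm9846 (Rps27rt in M21), while its paralog Rps27l differed from it at 60 of 252 bases, 19 of them in bases 4 to 63.
Rps27: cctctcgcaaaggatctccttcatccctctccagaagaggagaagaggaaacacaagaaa
Rps27l: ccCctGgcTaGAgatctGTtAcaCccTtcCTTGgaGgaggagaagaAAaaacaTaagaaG
Rpl23a, which lies at the exit of the peptide tunnel, differed from Rpl23a-ps3 at 1 of 468 bases, shown here within bases 86 to 145.
Rpl23a: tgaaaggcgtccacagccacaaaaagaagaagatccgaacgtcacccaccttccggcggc
Rpl23a-ps3: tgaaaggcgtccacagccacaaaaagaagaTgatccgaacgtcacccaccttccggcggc
Rpl24, also of the large subunit, differed from Gm9385 at 1 of 471 bases, within bases 283 to 342.
Rpl24: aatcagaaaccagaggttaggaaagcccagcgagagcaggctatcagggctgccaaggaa
Gm9385: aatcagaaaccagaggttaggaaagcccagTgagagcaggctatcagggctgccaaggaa
Rpl36a and its paralog Rpl36al differed at 39 of 318 bases, 12 of them within bases 115 to 174.
Rpl36a: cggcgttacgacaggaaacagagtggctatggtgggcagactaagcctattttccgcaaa
Rpl36al: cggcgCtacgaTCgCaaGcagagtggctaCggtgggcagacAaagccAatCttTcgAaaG
Rpl8, a protein next to the site of peptide bond formation, had no copy by the rule given below, and its first 60 bases are shown for contrast.
Rpl8: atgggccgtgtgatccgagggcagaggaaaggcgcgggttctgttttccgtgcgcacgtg

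Levels are in FPKM, which divides fragments by the length of a row and by the library's fragments, with the deposited 95% interval of each row. The rows of a gene were summed and the half-widths of their intervals combined in quadrature, and such an interval covers the estimate within a library, not the spread between animals. With 1 library per group there is no replicate check, no test and no p-value, so all statements describe these libraries. Read coverage per FPKM was 2.29 in Control and 2.93 in NP, and the median upper half-width of the intervals was 19.0% and 21.3% of the member's value. Hepatocyte markers were present in both libraries (8 genes, sums of 39028 and 49652 FPKM, Alb at 21660 and 30741). Sums were 32.3 and 16.4 FPKM for 6 Kupffer cell markers, 76.9 and 54.1 for 6 of sinusoidal endothelium and 100.3 and 82.8 for 5 of stellate cells. They were 618 and 560 for 5 erythroid markers, 2.02 and 2.25 for 6 of T and B cells, and 4.43 and 5.38 for 4 of neutrophils (Ngp and Camp at 0 in both). Their part in the differences below was not tested, and in bulk liver fewer cells of a type and less RNA per cell cannot be told apart.

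Although ribosomes need these proteins in equal numbers, the gene sums were very uneven. Over the 75 large-subunit, small-subunit and P-stalk genes the quartiles in Control were 9.71, 25.1 and 73.6 FPKM, and 50 genes lay below 50 FPKM while 12 reached 200. Rpl13a (mm9 chr7:52380928-52391787), which also takes part in silencing inflammatory mRNAs, was highest at 593 FPKM in Control and 705 in NP. Most of this lay in a row that has no entry in M21, as given below. In Control Rpl13a was followed by Rpl8 at 342 and 377 FPKM in the 2 libraries, by Rps9, which lies at the mRNA entry site, at 306 and 320 FPKM, and by Rpl32 at 303 and 333 FPKM. In NP, Rps21 (367 FPKM), Rplp1 (340) and Rpl32 lay above Rps9. At the other end, Rps18 of the small-subunit head was at 2.12 and 1.95 FPKM, all in its span row, Rpl21 at 1.02 and 1.18 FPKM, and Rpl18 and Rpl31 were listed at 0 in both libraries. Since a listed 0 may stand for an estimate that failed, no fold is quoted against one, although genes and rows at 0 in 1 library stay in the counts below.

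Ratios were taken as log2((NP + 1)/(Control + 1)), a scale that understates the differences of low genes. Of the 84 genes, 78 had a mean of at least 1 FPKM, a status of OK in every row, a row of at least 300 bases and no name of a small RNA. Rpl18, Rpl31, Rpl3l, Rpl10l, Rpl39l and Rpl7l1 fell short of the mean. On this scale 28 of the 78 were at least 1.5-fold lower in NP and 0 at least 1.5-fold higher. Of all 10544 genes past the same filter, 5.33% were that much lower and 3.59% that much higher. The median log2 ratio was -0.37 for the 78 and -0.03 for all genes. Without genes at 0 in 1 library, 27 of 77 members were lower. At 2-fold, 8 of the 78 were lower, against 1.89% of all genes, and 0 were higher, against 1.14%. They included Rpl35a, which was listed at 0 in NP, and Rpl23a, Rps20, Rps27, Rplp2, Rpl37a and Rpl36a. NP intervals lay wholly below those of Control for 26 members and wholly above for 2, Rpl13a and Rps21, where the shares over all genes were 9.58% and 7.72%.

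**Figure D1:**
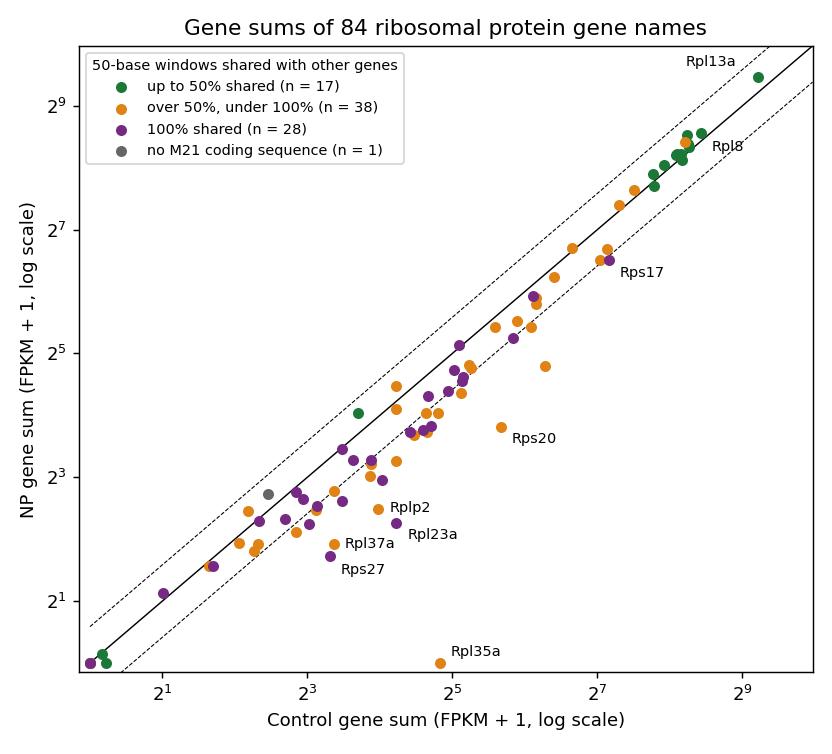
Gene sums of the 84 members in Control (x axis) and NP (y axis), both as FPKM + 1 on log scales, coloured by the share of 50-base stretches of the coding sequence found in other genes, with lines at equality and at 1.5-fold. Members high in Control such as Rpl13a (593 and 705 FPKM) and Rpl8 (342 and 377) sit on or above the line of equality, while Rps20, Rpl23a, Rps27, Rplp2, Rpl37a and Rpl35a lie well below it.

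In the large subunit 17 of 39 genes past the filter were at least 1.5-fold lower in NP, with a median log2 ratio of -0.49. Rpl23a (mm9 chr11:77994434-77997086) had 17.7 FPKM in Control (interval 13.2 to 22.3) against 3.80 FPKM in NP (2.97 to 4.64), and its log2 ratio was -1.96. Rpl37a, a protein with a zinc finger, was at 9.29 FPKM (6.18 to 12.4) and 2.78 (1.17 to 4.39), a log2 ratio of -1.44. Both genes had separate intervals and were low in either library. Rpl35a, one of the genes mutated in Diamond-Blackfan anaemia, had 27.3 FPKM in Control, all of it in 1 transcript row, and 0 in NP. Rpl3, which lies near the peptidyl transferase centre, was at 7.65 and 4.55 FPKM. Rpl5 and Rpl11 form a complex with 5S ribosomal RNA and can bind Mdm2. Rpl5 had 13.7 FPKM in Control and 8.73 in NP, and Rpl11 had 55.9 and 37.2. Their log2 ratios, -0.60 and -0.58, lay close to the limit of 1.5-fold, Rpl11 just within it. Rpl39, which lines the tunnel, was at 23.8 and 15.5 FPKM with overlapping intervals. Rpl10, which joins late in subunit maturation, was at 24.3 and 19.0 FPKM, within 1.5-fold. Rpl4, another tunnel protein, was at 286 FPKM (271 to 301) and 278 (263 to 292), and the intervals overlapped, as did those of Rpl8 and Rpl32.

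In the small subunit 9 of 31 genes were at least 1.5-fold lower, with a median log2 ratio of -0.18. Rps20, a protein of the head (mm9 chr4:3758481-3762812), had 49.9 FPKM in Control (41.4 to 58.5) against 13.1 in NP (11.8 to 14.4), and its log2 ratio was -1.86. Rps27 (mm9 chr3:90016593-90017573) was at 8.90 FPKM (4.31 to 13.5) and 2.32 (1.27 to 3.36). The intervals of both genes were separate. Rpsa, also known as the laminin receptor, was at 33.8 and 19.6 FPKM, again with separate intervals. Rps6 was at 67.9 FPKM (61.0 to 74.8) and 59.7 (53.5 to 65.9), Rps27a, made as a fusion with ubiquitin, at 29.5 and 19.9 FPKM, and Rps19 at 36.4 and 27.1 FPKM. These genes stayed within 1.5-fold and their intervals overlapped. Rps3, at the mRNA entry channel, was at 220 and 208 FPKM, Rps14 at 156 and 168 FPKM, and Rps2 at 17.7 and 21.2 FPKM. Rps21 had the highest log2 ratio of the subunit, 0.29, from 299 FPKM (273 to 325) against 367 (337 to 396) in NP.

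The P stalk recruits the elongation factors, and its 3 genes differed from each other. Rplp0, the anchor of the stalk, had 139 FPKM in Control (127 to 151) against 102 in NP (93.6 to 111). Rplp1 was at 293 FPKM (271 to 316) and 340 (315 to 364). Rplp2, the partner of Rplp1 (mm9 chr7:148633269-148637484), was at 14.7 FPKM (9.90 to 19.6) and 4.63 (3.28 to 5.97), a log2 ratio of -1.48. Although Rplp1 and Rplp2 work as a dimer, the gene sum of Rplp1 in Control was far above that of Rplp2. Separate intervals were seen for Rplp0 and Rplp2, not for Rplp1.

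Among the paralogs, Rps27l, a target of p53, was at 283 and 296 FPKM and Rpl36al at 180 and 199 FPKM. Both lay far above the gene sums of their parents Rps27 (8.90 and 2.32 FPKM) and Rpl36a (15.4 and 6.76 FPKM). With copies added, as described below, Rps27 was at 598 and 695 FPKM, above Rps27l, and Rpl36a at 58.0 and 49.3 FPKM, below Rpl36al. Rpl22l1, which can stand in for Rpl22, was at 6.20 and 3.32 FPKM, the only 1 of the 4 paralogs past the filter that was at least 1.5-fold lower. Rps4y2 (Rps4l in M21) was at 4.50 and 5.66 FPKM, all of it in the row of the gene span. Rpl3l, known from muscle, was at 0.117 and 0.106 FPKM. Rpl10l and Rpl39l, known from testis, were at 0 in both and at 0.161 and 0 FPKM, and Rpl7l1 was at 0 in both. Rps19bp1, whose product binds Rps19 and regulates Sirt1, was at 11.9 and 15.5 FPKM, the highest log2 ratio of the 78 genes (0.35), with overlapping intervals.

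The sequence of a gene and its level went together. For 83 members with a coding sequence in M21, each stretch of 50 bases was looked up in the transcripts of other genes. Genes whose span overlaps a member were left out, among them relatives of Rpl13a, Rpl24, Rpl36al and Rps10. In 17 members up to 50% of the stretches were shared, in 38 over 50% but not all, and in 28 all of them. No member shared such a stretch with another member. The median gene sum was 271 FPKM in Control and 278 in NP for the first group, 25.5 and 15.4 for the second, and 14.5 and 8.72 for the third. Of the members past the filter, 0 of 13, 17 of 37 and 11 of 27 were at least 1.5-fold lower in NP, and the median log2 ratios were 0.12, -0.49 and -0.54. With copies added, as described below, the medians of the 3 groups were 285, 302 and 408 FPKM in Control and the log2 ratios 0.10, 0.01 and 0.09. All 28 lower members thus shared over 50% of their stretches. Across members, which share their libraries, Spearman's rho of the shared percentage was -0.36 with the Control gene sum (n = 83) and -0.46 with the log2 ratio (n = 77). Level and direction also went together within the table: of 15 members at or above 150 FPKM in Control 13 were higher in NP by any amount, against 58.8% of all 512 such genes. Of 62 members below that level, past the filter and above 0 in both libraries, 55 were lower (88.7%), against 55.0% of all 9935 such genes. The counts of members were the same when split on the mean of both libraries, for which the shares of all genes were 61.7% and 55.2%. The limit was chosen after the values were seen.

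The copies held most of the signal. A copy was taken as another gene with a transcript at least 90% identical over at least 50% of a member's coding sequence and not overlapping it, or a gene with the member's name and the suffix -ps. By this rule, chosen after the values were seen, 78 members had at least 1 copy. Of 1073 copies in M21 or by name, the tables held 617, 541 of them processed pseudogenes in M21. Copies that the tables do not hold enter no sum below. The members summed to 6192 FPKM in Control and 6021 in NP, the copies to 21095 and 22165. The members' own rows thus made up 22.7% of the joint sum in Control and 21.4% in NP. In 61 of the 84 members the copies held more FPKM than the gene in Control, and Spearman's rho of the shared percentage with the copy sum was 0.65 (n = 83). Of 238 copies past the filter, 49 were at least 1.5-fold lower and 2 higher in NP, against 5.33% and 3.59% of all genes. Their median log2 ratio was -0.16, although the sum of the copies was higher.

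For single genes the gap was wide. Rps18 stood at 2.12 and 1.95 FPKM, beside 740 and 765 FPKM in its copies, chiefly Gm10260 at 537 and 567 FPKM. Rps27 was at 8.90 and 2.32 FPKM beside the identical Gm9846 at 589 and 693 FPKM. Rplp2, at 14.7 and 4.63 FPKM, stood beside Rplp2-ps1 at 370 and 480 FPKM. In these 3 families the copies held far more FPKM than the gene. Gm10260 is annotated as a processed pseudogene, Rplp2-ps1 carries a pseudogene name, and Gm9846 is annotated as protein coding. Rpl23a had copies at 465 and 531 FPKM, and Rpl37a at 540 and 605. Rpl18 and Rpl31, listed at 0, had copies at 233 and 223 FPKM and at 251 and 282 FPKM. Beside Rps6 (67.9 and 59.7 FPKM) its copies were at 431 and 450 FPKM, of which Gm13654 held 348 and 383.

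With the copies added to their gene, the members were more even and the difference between the libraries was smaller. Over the same 75 genes the quartiles of these family sums in Control were 274, 336 and 449 FPKM, a ratio of upper to lower quartile of 1.64, where the gene sums alone gave 7.58. In NP the ratios were 1.58 and 11.9. Only 1 family lay below 50 FPKM in Control, and 67 reached 200. Members and copies together summed to 27287 FPKM in Control and 28187 in NP, and the ratio was 1.03. Of 81 families past the filter, 4 were at least 1.5-fold lower and 0 higher, against 4.74% and 3.66% of the 10309 genes tested with copies joined to their members, and the median log2 ratio was 0.06. Medians were 0.07 in the large subunit, 0.03 in the small subunit and 0.06 in the P stalk. Of the 28 members that were lower alone, 26 had a family sum within 1.5-fold, and 22 had copies with at least 5 times their FPKM in Control. In 18 of the 28 the copy sum was higher in NP. The 18 were not set beside a count over the other members, and the sum of all copies was also higher (21095 and 22165 FPKM). In those 22 the copies outweigh the gene. A gene sum falling to 0 beside unchanged copies would still leave such a family within 1.5-fold. For these members the family sum thus cannot show whether the gene itself differed. Rplp2 with its copies was at 385 and 486 FPKM and Rplp1 with its copies at 467 and 487, so that the dimer partners lay close together.

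**Figure D2:**
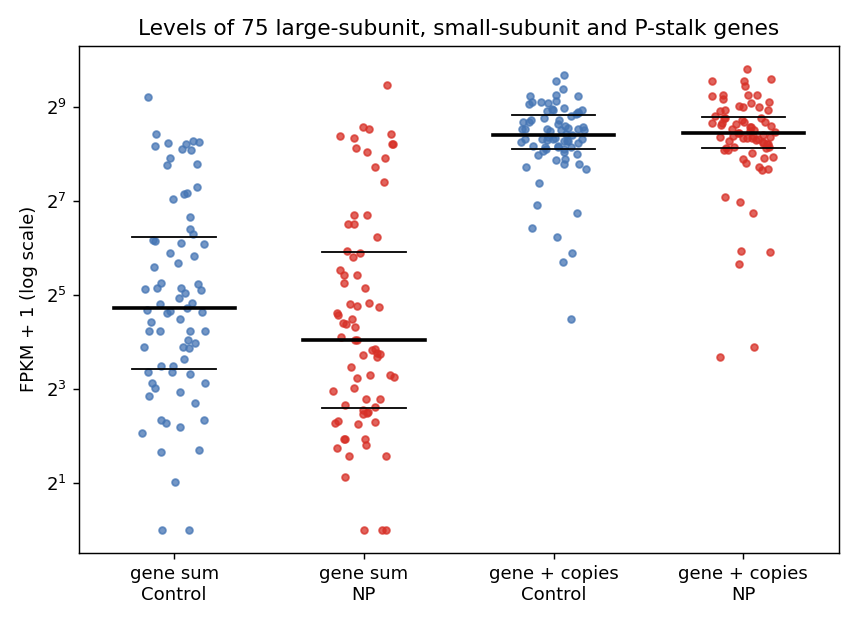
FPKM + 1 on a log scale for the 75 large-subunit, small-subunit and P-stalk genes, as gene sums and with copies added, in Control (blue) and NP (red); each point is a gene, thick bars are medians and thin bars quartiles. Gene sums spread from 0 to 593 FPKM in Control around a median of 25.1, whereas family sums gather around a median of 336.

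The 4 families that were lower in NP were those of Rps20, Rpl24, Rps19 and Rpl23. Of 5 copies of Rps20 by the rule, the tables held only 1, Gm4997, at 0.711 and 0.753 FPKM. The Rps20 family sum was 50.6 and 13.8 FPKM, a log2 ratio of -1.80. Rpl23, which lies near the subunit interface, had 3 copies by the rule. The tables held 1 of them, at 0, and Rpl23 stood at 21.2 and 11.8 FPKM with separate intervals. These sums thus leave out most copies of Rps20 and Rpl23, of whose 50-base stretches 85.7% and 86.5% were shared with other genes. The family sums of Rpl23 and Rps20 were also the lowest of the 75 genes in Control and the only ones in which lower gene and lower family came together. The Rps19 family was at 105 and 59.1 FPKM, in which Rps19-ps4 had 23.2 FPKM in Control and 0 in NP. The Rpl24 family was at 552 and 282 FPKM. Its copy Gm9385 was at 432 and 168 FPKM, but a row of 201 bases held 273 FPKM in Control and was at 0 in NP, while its other row, of 472 bases, was at 160 and 168 FPKM. The name Rpl24 itself was at 4.03 and 3.90 FPKM, of which 3.71 and 3.61 lay in a transcript that M21 assigns to Zbtb11, a transcription factor gene next to it, and every transcript of Rpl24 proper was at 0.

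**Figure D3:**
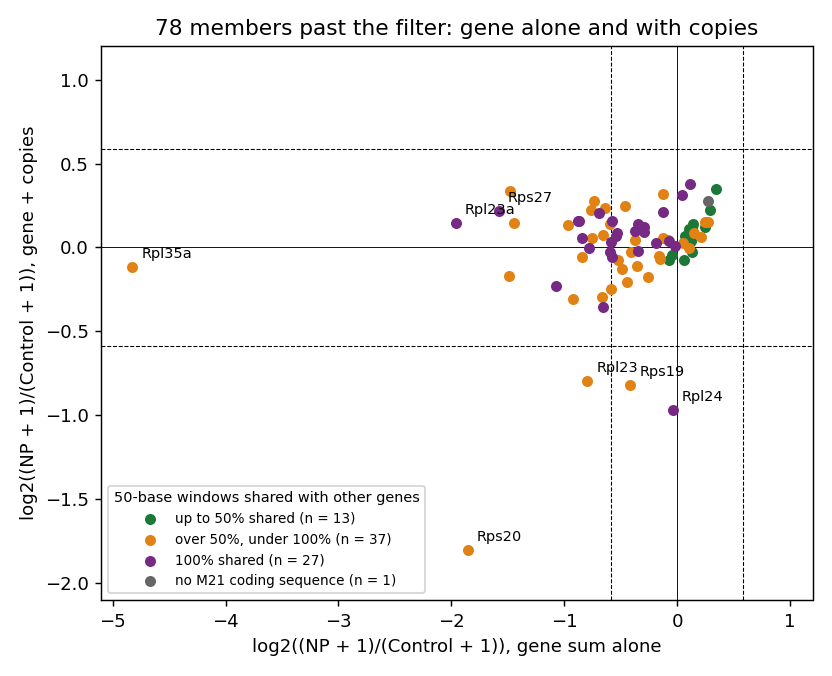
log2((NP + 1)/(Control + 1)) of the 78 members past the filter, for the gene sum alone (x axis) and with copies added (y axis), coloured by the share of 50-base stretches found in other genes; dashed lines mark 1.5-fold. The 28 members left of the line at 1.5-fold lower mostly stay near 0 on the y axis, Rpl35a lies at the far left because it was listed at 0 in NP, and only the families of Rps20, Rpl24, Rps19 and Rpl23 lie under the lower horizontal line.

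Within families, FPKM were more concentrated in NP. In 74 families with a copy in the tables and FPKM in both libraries, the highest gene in Control was a copy in 60 and the member itself in 14, and 73 had the same highest gene in NP. The highest gene of each library held a median of 69.0% of the family FPKM in Control and 73.2% in NP. The share was larger in NP in 69 families, equal at 100% in 2, and smaller in 3, those of Rpl24, Rpl21 and Rps20. In the Rpsa family Rpsa-ps10 held 50.6% in Control and 66.7% in NP. In the Rps15a family Gm14166 held 46.5% and 70.6%, at 156 and 225 FPKM, while Rps15a itself was at 130 and 89.8 FPKM. Rplp0 held 50.7% of its family in Control, and Gm8730 held 55.4% in NP. Where the member led, Rpl13a took 72.5% and 79.2%, Rps15, also of the small-subunit head, 59.5% and 66.6%, and Rps14 66.0% and 71.4%. NP was also the more deeply covered library by a ratio of 1.28, and the part of depth in this was not tested.

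**Figure D4:**
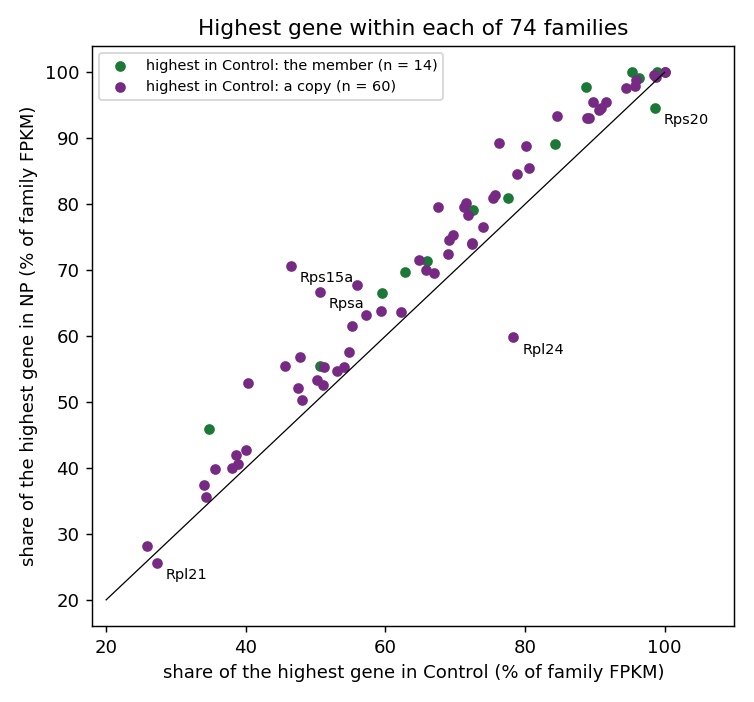
Share of family FPKM held by the highest gene of each of 74 families in Control (x axis) and NP (y axis), in percent, coloured by whether that gene was the member or a copy in Control, with the line of equality. Nearly all points lie above the line (69 families), and Rpl24 (78.3% and 59.8%), Rps20 and Rpl21 lie below it.

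By row the differences went both ways, and part of them lay in rows listed at 0 in 1 library. Of 358 transcript rows 121 were above 0 in Control and 109 in NP, 94 of them in both. Of 126 rows with status OK whose mean reached 1 FPKM, 50 were at least 1.5-fold lower and 15 higher, with a median log2 ratio of -0.36. Over all 12736 transcript rows past the filter, 10.9% were lower and 9.07% higher, with a median of -0.02. In 36 of the 126 the row was listed at 0 in 1 library. Without these, 26 of 90 rows were lower and 3 higher, against 6.25% and 4.83% of all rows above 0 in both libraries. Rows past 1.5-fold in both directions were found in 11 members, in each of them with at least 1 row at 0 in 1 library. The same count was not made over all genes, so it is not known whether 11 is many. Summed over the transcript rows of a gene, 33 of 74 members were lower and 0 higher, against 4.92% and 3.78% of all genes. Of 73 mRNA rows that match the reference coding transcript of a member, 20 were at 0 in Control, 24 in NP and 16 in both.

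Retained-intron rows had a lower ratio of NP to Control than coding rows. Coding transcripts held 74.5% of the members' FPKM in Control and 74.8% in NP, with sums of 4615 and 4501. Rows that M21 annotates as retained introns summed to 184 and 83.4 FPKM, a ratio of 0.45, and those annotated for nonsense-mediated decay to 34.9 and 17.2 FPKM. In Rps20, retained-intron rows of 582 and 512 bases were at 20.6 and 18.4 FPKM in Control and at 0 in NP, while the coding row was at 10.9 FPKM (9.63 to 12.2) and 13.1 (11.8 to 14.4). The lower gene sum of Rps20 thus lay in rows other than its coding transcript. In Rplp2 the coding row of 421 bases was at 9.11 FPKM in Control and 0 in NP, and that of 964 bases at 0 and 3.33 FPKM. In Rps14 the mRNA row was at 156 and 113 FPKM, while a second coding row was at 0 and 54.5 FPKM. In Rpl13a, 431 and 523 FPKM lay in a row of 338 bases that has no entry in M21. Rpl8, Rpl32, Rps9, Rps21 and Rplp1 each had 1 transcript above 0, the same one in both libraries.

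**Figure D5:**
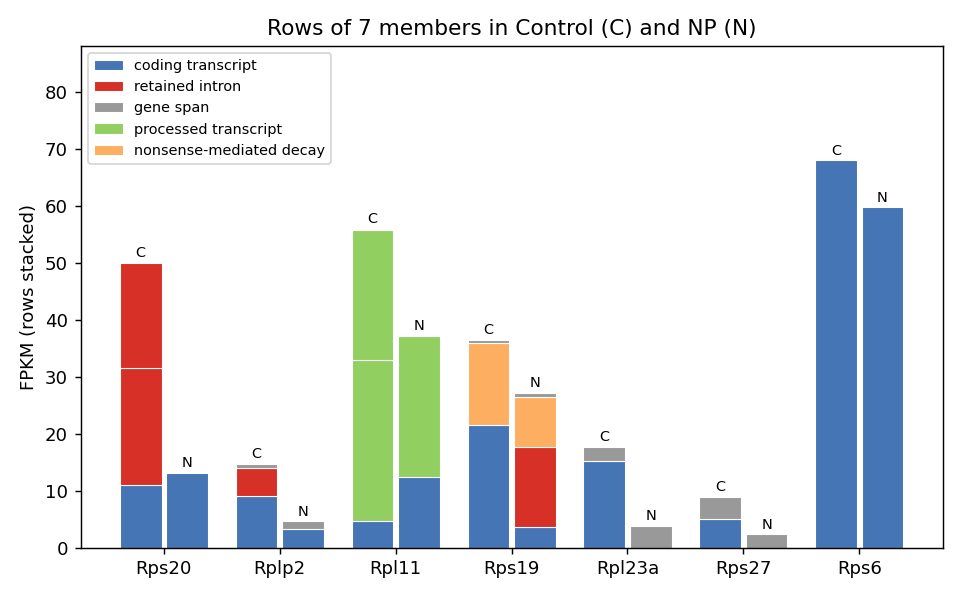
FPKM of the rows of 7 members, stacked, in Control (C) and NP (N) and coloured by the M21 type of the row; white lines part rows of 1 type. Retained-intron rows of 20.6 and 18.4 FPKM make up most of Rps20 in Control and are absent in NP, while the single coding row of Rps6 is at 67.9 and 59.7 FPKM.

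Rows that cover the span of a gene, which can also take intronic reads, were low and mostly stayed within 1.5-fold. Of the member span rows past the filter, 21 were within it, and only 2 had a mean of at least 5 FPKM. Of the 84 span rows, 23 passed the filter, 0 of them at least 1.5-fold lower in NP and 2 higher, Rpl10 (3.26 and 6.15 FPKM) and Rpl7a (1.49 and 3.15 FPKM). Over all 1414 span rows past the filter, 15.1% were lower and 6.51% higher, and the median log2 ratios were 0.07 for members and -0.08 for all. All span rows include those of copies such as Gm9846, whose FPKM (589 and 693) lay wholly in a span row of 344 bases. The values over all span rows, here and below, thus mix unlike rows and are no like-for-like background for the members. The members' span rows summed to 56.6 and 71.2 FPKM, a ratio of 1.26, beside 0.94 for all span rows. Of 40 members with a span row above 0 in both libraries, 23 were higher in NP by any amount (57.5%), against 37.7% of all 9099 such rows. The span row was all that remained of some members in NP. Rpl23a was at 2.50 and 3.80 FPKM by its span, while its mRNA row was at 15.2 and 0. Rps27 was at 3.91 and 2.32 by its span and at 4.99 and 0 by its mRNA row. In Rpl36 and Rpl22l1 the log2 ratios of transcript rows alone, -1.55 and -1.17, were also lower than those of the gene sums, -0.66 and -0.74.

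Spans of 11 members overlap another gene with FPKM, among them Rpl23a and Tlcd1 (16.2 and 14.8 FPKM), and Rps18 and Vps52 (19.2 and 18.6 FPKM). Strandedness is not given in the sources used here, so reads of such pairs may not have been parted.

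Related genes outside the naming rule are given by list, beside the 5.33% of all genes that were at least 1.5-fold lower and the 3.59% that were higher. Of ribosomal parts outside the naming rule, Fau, a fusion that yields a small-subunit protein, was at 28.9 FPKM (23.2 to 34.5) and 16.4 (12.3 to 20.4). Gnb2l1, the scaffold protein Rack1, was at 237 and 257 FPKM. Of 19 other mRNAs with a terminal oligopyrimidine tract, the element shared by ribosomal protein mRNAs, 1 was lower and 0 higher, with a median log2 ratio of -0.08. The lower one was Eef1g, an elongation factor subunit, at 24.6 and 12.8 FPKM. Eef2, the translocation factor, was at 635 and 595 FPKM. Of 31 genes of ribosome biogenesis past the filter, 1 was higher and 0 lower (median 0.04): Polr1a, the largest subunit of RNA polymerase I, at 2.67 and 4.51 FPKM. Of 18 genes that control ribosomal protein mRNAs, 0 were higher and 1 lower (median -0.06): Myc, at 4.82 and 2.17 FPKM, while Mtor was at 11.4 and 10.3 and Larp1 at 23.0 and 21.5 FPKM. Of 80 respiratory chain subunits and assembly genes, which are also short mRNAs, 0 were higher and 5 lower (median 0.00), and of 76 mitochondrial ribosomal proteins 1 was higher and 1 lower (median 0.09). Of 86 genes past the filter whose name marks a ribosomal protein pseudogene, 0 were higher and 17 lower (median -0.12), although their sum over 163 genes was 7369 and 7973 FPKM.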

How the data were processed

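Total RNA of liver was extracted with Trizol and sequenced from TruSeq libraries, per the labels' protocols, and deposited as 1 table per group. The submitters' processing notes name TopHat2 2.1.0, Cufflinks 2.2.1.0 and mm9; for their roles, read length, strandedness and reads with several matches, the sources used here state nothing. The authors deposited FPKM with interval bounds and read coverage, per the file headers. Coverage was taken here as a signal not scaled to depth. The tables use mm9, while the sequences are from GENCODE M21 (GRCm38) and were joined by gene and transcript ID. The ID that the tables give to Rpl24 belongs to Zbtb11 in M21, so the M21 gene of that name was used.

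FPKM were summed per gene identifier. Genes needed a mean of 1 FPKM, an OK status in all rows, a row of at least 300 bases and no small RNA name. Ratios were log2((NP + 1)/(Control + 1)), counted at 1.5-fold. Coding sequences were aligned with blastn 2.17.0, and each copy was assigned to its best member. Members, lists and named genes were chosen with earlier results of these data known. Named were 19 fixed genes (Rpl41 among them is not analysed here), paralogs, Rps19bp1, the 6 highest and 6 lowest ratios, members at 0 in 1 library, the 5 largest gaps between gene sum and transcript rows, and the 5 highest sums. Values of some genes are not reported here. Genes named beside these were chosen after their values were seen. Alternatives covered the pseudocount, filter, scaling, rows, status, fold and members. Scripts ran under Python 3.11.15 with scipy 1.17.1, pandas 2.3.3, matplotlib 3.10.9 and numpy 2.4.6.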

Additional observations from a re-analysis of the deposited data

How the results depend on the processing

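With 1 library per group no replicate could be left out. No paired analysis was possible because each group has 1 library. Of the alternative values, 42 kept their direction and size, 11 moved and 4 changed sign. The count of 28 of 78 members with lower gene sums became 18 with a pseudocount of 5 FPKM and 8 at 2-fold. Of all genes, 2.05% and 1.89% were lower at these settings. Without members that have a -ps namesake it was 9 of 30, against 5.33% of all genes, with a median log2 ratio of -0.10 in place of -0.37. Alternatives chosen after seeing the data added the copies. Of 81 families, the count was then 4 with all copies and 5 with copies of at least 95% identity over 80% of the coding sequence. It was 6 with annotated pseudogenes only, and 2 with FPKM times row length in kb. The shares of all genes were 4.74%, 4.82%, 4.79% and 6.23% in the same order. The median log2 ratio then changed sign, to 0.058, 0.068, 0.040 and 0.073 in the same order. Scaling NP by the ratio of medians (0.98), upper quartiles (0.98) or sums (1.00) left the count over gene sums at 24, 24 and 27 of 78. The shares of all genes were 5.04%, 4.99% and 5.30%. For transcript rows only medians (49 of 128) and sums (50 of 126) were tried, against 10.6% and 10.8% of all rows. For span rows only medians were tried (0 of 23, against 14.6% of all span rows). The count of 50 lower transcript rows became 32 of 88 at a mean of at least 5 FPKM, against 6.66% of all rows. Without rows at 0 in 1 library it was 26 of 90, against 6.25%, and the 15 higher rows became 3, against 4.83%. With a pseudocount of 0.1 the count of 0 lower span rows became 3 of 23, against 20.2% of all span rows. The intervals leave out the spread between animals and the covariance between rows, and how reads were shared between a gene and its copies is not given in the sources used here.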
